A study of Mus musculus with 6 samples.

Results

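The data described here are the 45 entries of a mouse liver expression table whose gene symbols begin with Nduf, the names given to the nuclear-encoded subunits and the dedicated assembly factors of mitochondrial respiratory complex I. They were taken by symbol out of 24346 entries, and all 45 passed the filter that left 11493 genes for testing, which was an average of 0.5 FPKM or more across the 6 livers. By role they are 36 structural subunits, 7 assembly factors (Ndufaf1 to Ndufaf7) and 2 entries, Ndufa4 and Ndufa4l2, that carry the name without being counted among the subunits. The mitochondrially encoded ND subunits and Ndufb1 were not analysed here, and Ndufaf8 is listed under an older symbol, 1810043H04Rik.

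Complex I, or NADH:ubiquinone oxidoreductase, is the L-shaped entry enzyme of the respiratory chain in the inner mitochondrial membrane. Its peripheral arm takes electrons from NADH and hands them through iron-sulfur clusters to ubiquinone, and its membrane arm pumps protons. Core subunits do this chemistry and are shared with bacteria, accessory subunits surround them, and assembly factors build the modules and leave the finished enzyme. In hepatocytes much of the NADH that it oxidizes comes from the β-oxidation of fatty acids.

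The study asked what forced degradation of lipid droplets by autophagy (lipophagy) does to a steatohepatitic liver. Male C57BL/6 mice (C57BL/6J in the study’s methods), 8 weeks old when the diet began, ate CDAHFD, a high-fat diet that lacks choline and supplies defined L-amino acids, for 6 weeks, received 1 intravenous dose of an adeno-associated virus of serotype 8, returned to normal chow, and gave their livers 2 weeks later. Both viruses used the liver-specific thyroxine-binding globulin promoter, which is active in hepatocytes, and both encoded the lipid droplet-targeting sequence (LDTS) of perilipin 1. In the lipophagy group (3 livers) the LDTS was joined to an engineered LC3-interacting region that recruits autophagosomes (LDTS-eLIR), and in the control group (3 livers) it was joined to a mutant region without that affinity (LDTS-LIR mut). The LDTS has a mild lipogenic effect of its own, so the groups share LDTS, diet and virus type and differ in the LC3-interacting region, and no liver without the LDTS or without the diet was among the samples. Whole-liver RNA was sequenced, so that fewer cells of a type and less RNA per cell cannot be told apart.

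Values are FPKM, the fragments of a transcript divided by its length in kilobases and by the size of its library. Their sum differed between groups, being 622696 to 681138 in the control livers and 709993 to 782392 in the lipophagy livers, with no overlap. The main group counts and most changes of named genes are therefore also given after every liver was rescaled to the same FPKM sum, a step that moved the median log2 change of all tested genes from 0.020 to -0.12. For 55.5% to 62.0% of low-valued genes the ratio of a liver to control liver 1 was, within 0.4%, a ratio of small whole numbers at the best relative depth, beside a median of 2.09% to 2.79% over the depths tried, which placed the depth at an estimated 22900000 to 34000000 fragments per liver, and the least abundant subunit, Ndufa11, still had an estimated 192 fragments or more in every liver. The livers had the markers of their tissue: the summed FPKM of 12 hepatocyte markers was 60921 to 68370 in controls and 74069 to 96421 with lipophagy. Alb alone made up 57.3% to 58.2% of that sum in controls and 60.6% to 66.5% with lipophagy, and 5 of the 12 markers were without overlap. As a share of each liver's FPKM sum the 12 markers overlapped between groups (9.27% to 10.8% against 10.1% to 12.3%), and so did the sum of the other 11 without Alb (25450 to 29212 FPKM against 29060 to 32332). Of other cells, the sum of 10 stellate cell markers was 171 to 185 in controls and 136 to 164 with lipophagy, that of 12 macrophage markers 545 to 725 against 530 to 667, that of 6 bile duct markers 137 to 247 against 92.0 to 196, and that of the 6 erythroid markers found 109 to 136 against 122 to 483. The sum of 8 endothelial markers was 23.3 to 29.9 in controls and 27.9 to 45.3 with lipophagy. The sums of the 5 neutrophil markers found (18.8 to 32.0 against 16.1 to 18.7) and of 8 lymphocyte markers (4.79 to 5.97 against 3.80 to 4.50) were lower in every lipophagy liver than in every control. So was the stellate cell sum. Only 3 of the neutrophil and 3 of the lymphocyte markers passed the filter on low values. No marker found was at 0 in all livers, and the part of cell composition in the results was not tested.

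Complex I transcripts were higher in mean in the lipophagy livers almost throughout, by 19.8% in the median member, and no single transcript passed the test across all genes. The log2 change on log2(FPKM + 1) was above 0 for 44 of 45 members as deposited, where 54.5% of all tested genes were above 0, and for 37 of 45 after rescaling to the same FPKM sum, where 22.6% were. The median log2 change was 0.27 over the 36 subunits and 0.21 over the 7 assembly factors, beside 0.020 over all tested genes. After rescaling the medians were 0.090 and 0.050, which lay 0.21 and 0.17 above the median of all genes, as against 0.25 and 0.19 as deposited. After quantile normalization the medians of subunits and assembly factors lay only 0.079 and 0.18 above that of all genes. Every lipophagy liver was above every control liver for 31 members as deposited, beside 15.4% of all tested genes, and for 11 members after rescaling, beside 2.74%. No member had every lipophagy liver below every control liver, an arrangement found in 10.8% of all genes.

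By limma with Benjamini-Hochberg adjustment over all 11493 genes, 0 of 45 members reached an adjusted p below 0.05, as did 0.0261% of all genes, and the lowest adjusted p of a member was 0.134, for Ndufs3. At an unadjusted p below 0.05, 29 members were higher, beside 11.5% of all genes, and 0 were lower, beside 7.97%. The 29 became 5 after rescaling, beside 2.05% of all genes, and 9 after quantile normalization, beside 6.48%, where 38 of 45 members were above 0 and so were 52.0% of all genes. Over all genes the calls at this level split into 1327 higher and 916 lower as deposited, 236 and 2504 after rescaling, and 745 and 899 after quantile normalization. With 3 livers in each group, 0.1 is the smallest p that an exact permutation test of a single member allows.

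The livers numbered 1 lay at the ends of the range for most members. Lipophagy liver 1 held the highest value of 42 of 45 members, beside 28.5% of all tested genes, and control liver 1 held the lowest of 34, beside 24.3%. These were also the livers with the highest and the lowest FPKM sum, 782392 and 622696. The 36 subunits deviated from their own means over 6 livers by an average of -0.22, -0.099 and -0.078 (log2) in control livers 1 to 3 and by 0.27, 0.093 and 0.035 in lipophagy livers 1 to 3. The groups did not overlap, and the outer livers were those numbered 1. On the rescaled values the same averages were -0.058, -0.017 and -0.047 in controls and 0.099, 0.016 and 0.0070 with lipophagy, still without overlap but with lipophagy livers 2 and 3 near 0. Without lipophagy liver 1 the members higher at an unadjusted p below 0.05 were 14, beside 6.96% of all genes, and those above 0 were 44, beside 53.9%. Without control liver 1 they were 15, beside 8.32%, and 43, beside 55.1%. Without both livers, an alternative chosen after seeing the data that had to shrink the difference because these were the outermost livers, they were 8, beside 6.52%, and 42, beside 54.7%, and the median change of the subunits was 0.15. The medians of subunits and assembly factors then lay 0.13 and 0.085 above that of all genes.

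**Figure D1:**
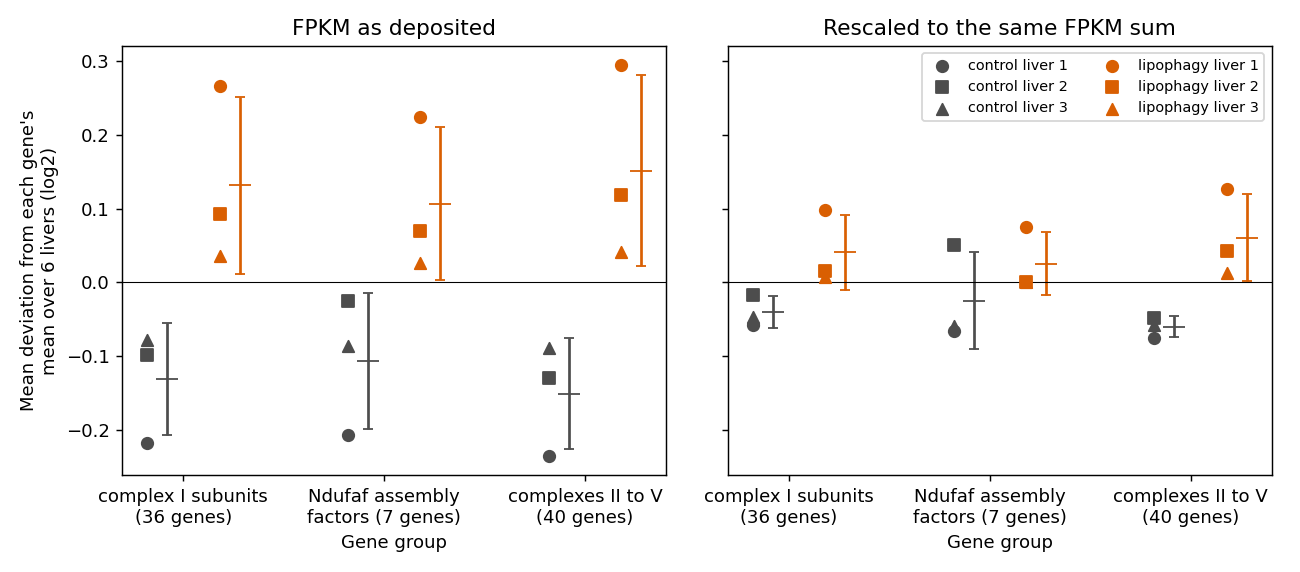
Mean deviation (log2) of each gene group from its genes' means over 6 livers, for the 36 complex I subunits, the 7 Ndufaf assembly factors and 40 genes of complexes II to V, with FPKM as deposited (left) and after rescaling each liver to the same FPKM sum (right); points are livers, horizontal lines are group means and bars are SD (n = 3). As deposited the subunits lie at -0.22 to -0.078 in controls and at 0.035 to 0.27 with lipophagy; after rescaling they lie at -0.058 to -0.017 and at 0.0070 to 0.099, and the assembly factors of the groups overlap.

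The 7 nuclear-encoded core subunits, which bind FMN and the iron-sulfur clusters and form the ubiquinone site, were higher in mean in the lipophagy livers on both scales. As deposited, all 7 had every lipophagy liver above every control liver, beside 15.4% of all tested genes. After rescaling 3 of 7 did, beside 2.74%. Ndufs1, the largest core subunit and the carrier of iron-sulfur clusters of the NADH-oxidizing module, had 39.7, 37.6 and 35.6 FPKM in control livers 1 to 3 and 54.9, 48.5 and 45.6 in lipophagy livers 1 to 3. The lowest lipophagy liver was thus well above the highest control. Its log2 change was 0.39 (standard error 0.0920, adjusted p = 0.134), or a mean 32.0% higher, and 0.21 after rescaling. Ndufs3, a subunit of the ubiquinone-reducing module that enters the complex early, had 146, 163 and 161 FPKM in controls and 221, 197 and 194 with lipophagy. Control liver 1 was the lowest and lipophagy liver 1 the highest, and the groups were apart. Its log2 change was 0.38 (standard error 0.0898, adjusted p = 0.134), and 0.20 after rescaling.

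Ndufv1, which binds NADH and FMN, had 103, 98.5 and 101 FPKM in controls and 131, 117 and 112 with lipophagy. Its partner Ndufv2, the carrier of a binuclear cluster, had 66.2, 75.1 and 70.2 FPKM against 90.3, 85.5 and 84.1. For both genes the 3 controls lay below all lipophagy livers. The log2 changes were 0.24 (standard error 0.0848) and 0.29 (standard error 0.0806), with adjusted p-values of 0.202 and 0.154 by limma. After rescaling the changes were 0.06 and 0.11. Ndufs7 lines the pocket that receives ubiquinone. It had 102, 108 and 113 FPKM in controls and 137, 132 and 117 with lipophagy, where the third lipophagy liver was only just above the third control, and its log2 change was 0.25 (0.06 after rescaling). Ndufs8, which carries clusters between the NADH module and the ubiquinone site, had 129, 146 and 143 FPKM against 176, 162 and 148. It had the smallest change of the core, 0.22 (standard error 0.0958, adjusted p = 0.263), and 0.034 after rescaling, less than its standard error of 0.0694 there.

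**Figure D2:**
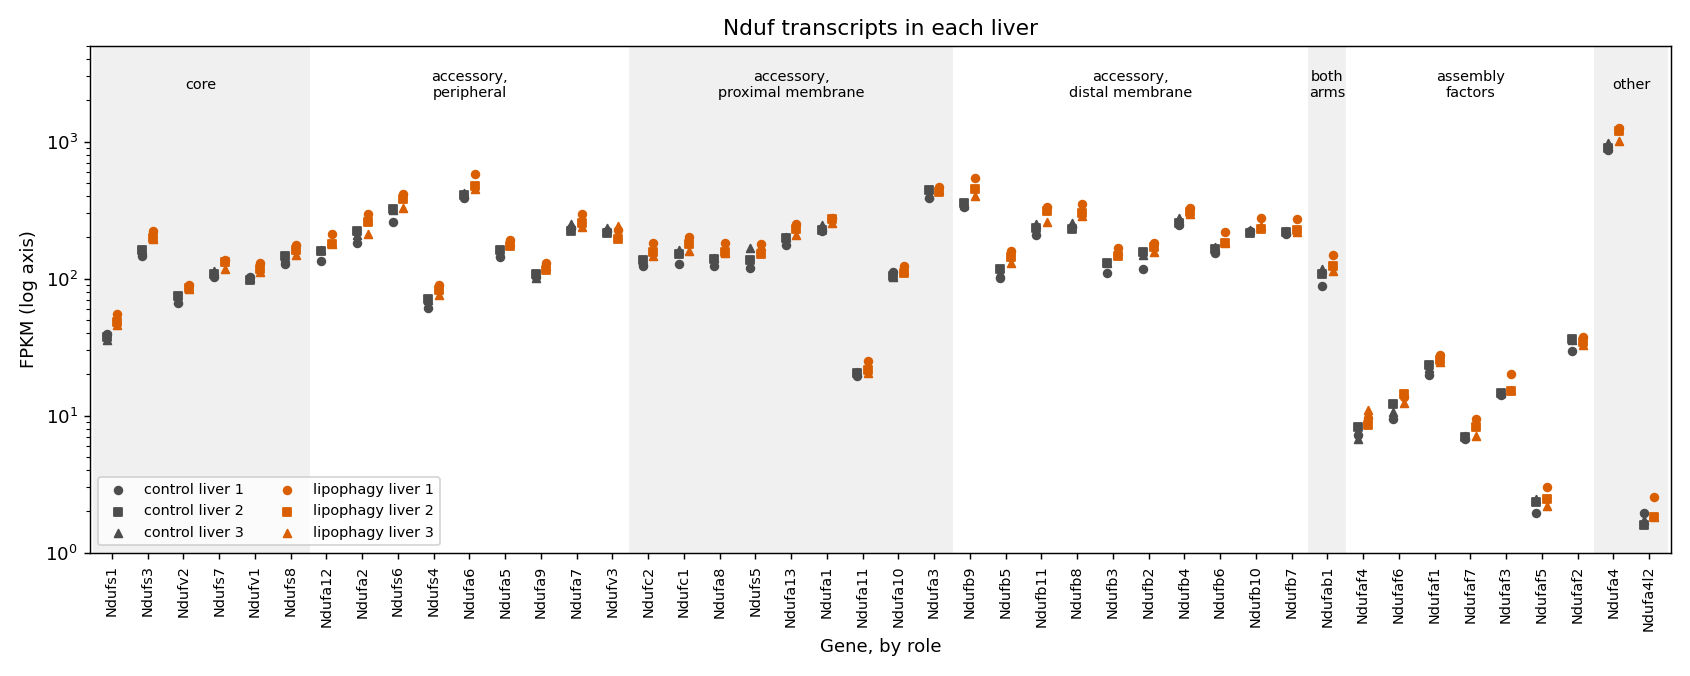
FPKM (log axis) of 44 of the 45 Nduf transcripts in each of 3 control (grey) and 3 lipophagy (orange) livers, ordered by role and, within a role, by log2 change; each symbol is 1 liver. Mean levels run from 21.4 to 455 FPKM for the subunits and from 2.41 to 34.4 FPKM for the assembly factors, and the highest point is lipophagy liver 1 in all genes plotted but Ndufaf4, Ndufaf6 and Ndufv3.

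The 9 accessory subunits of the peripheral arm had a median log2 change of 0.29 as deposited, with 8 above 0, and 0.11 after rescaling, with 7 above 0. Ndufa12, which sits between the NADH and the ubiquinone modules, had 135, 160 and 162 FPKM in controls and 213, 180 and 180 with lipophagy. The groups were apart, and the log2 change was 0.32 (standard error 0.108, adjusted p = 0.192), and 0.14 after rescaling. Ndufa2, a small subunit with a thioredoxin-like fold, had 182, 221 and 209 FPKM in controls and 297, 261 and 213 with lipophagy. Here lipophagy liver 3 lay inside the control range, so that a log2 change of 0.32 came with a standard error of 0.135 and an adjusted p of 0.247, and was 0.14 after rescaling. Ndufv3, a subunit of the NADH module, was the only member with a lower mean in the lipophagy livers. It had 223, 214 and 233 FPKM in controls and 226, 196 and 243 with lipophagy, and the lipophagy livers lay on both sides of the controls. Its log2 change was -0.02 (standard error 0.0987, adjusted p = 0.935), -0.20 after rescaling, 0.01 without control liver 3 and 0.07 without lipophagy liver 2. The other 6 peripheral accessory subunits (Ndufa5, Ndufa6, Ndufa7, Ndufa9, Ndufs4 and Ndufs6) had log2 changes of 0.16 to 0.32, and of these only Ndufa7 turned negative after rescaling, at -0.02.

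Accessory subunits at the foot of the membrane arm, near the ubiquinone site, had the lowest median log2 change of the subunit groups, 0.25. Of these, 9 of 9 were above 0 and 4 were without overlap, beside 15.4% of all tested genes. After rescaling the median was 0.070, with 6 of 9 above 0 and 1 without overlap, beside 2.74%. Ndufc2 and its neighbour Ndufc1 are small membrane-spanning subunits. Ndufc2 had 124, 136 and 134 FPKM in controls and 181, 158 and 145 with lipophagy, and the groups were apart. Ndufc1 had 128, 151 and 162 FPKM against 201, 179 and 159, and lipophagy liver 3 fell below control liver 3. Both had a log2 change of 0.29, with standard errors of 0.0998 and 0.122 and adjusted p-values of 0.201 and 0.251, and 0.11 and 0.10 after rescaling. Ndufa3, another short membrane subunit, had the smallest change of the group. It had 391, 442 and 407 FPKM in controls and 469, 427 and 446 with lipophagy, which overlapped. Its log2 change of 0.11 (standard error 0.0878, adjusted p = 0.487) became -0.07 after rescaling and -0.10 after quantile normalization. The other 6 (Ndufa1, Ndufa8, Ndufa10, Ndufa11, Ndufa13 and Ndufs5) had log2 changes of 0.13 to 0.28, and Ndufa10 and Ndufa11 turned negative after rescaling, at -0.05 and -0.04.

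The 10 accessory subunits of the distal membrane arm, the proton-pumping tip, had the highest median of the role groups, 0.31 as deposited and 0.13 after rescaling, with 10 of 10 and 8 of 10 above 0. In 9 of the 10 every lipophagy liver was above every control liver as deposited, beside 15.4% of all tested genes. After rescaling this held in 5, beside 2.74%. Ndufb9, which holds an acyl carrier protein at the tip, had 332, 358 and 342 FPKM in controls and 539, 448 and 402 with lipophagy. The lowest lipophagy liver was above all controls, and lipophagy liver 1 stood far above the other livers of its group. Its log2 change was 0.42 (standard error 0.117, adjusted p = 0.157), a mean of 463 ± 69.9 FPKM (SD, n = 3) against 344 ± 13.3, which was the largest change of the 45 members as deposited and after rescaling, where it was 0.23. Ndufb5, a subunit with a single membrane span, had 101, 117 and 111 FPKM in controls and 161, 144 and 129 with lipophagy. The groups were apart, and the log2 change was 0.39 (standard error 0.104, adjusted p = 0.149), and 0.21 after rescaling. Ndufb7, a cysteine-rich subunit on the intermembrane-space side, had the smallest change. It had 212, 218 and 221 FPKM in controls and 273, 226 and 218 with lipophagy, so that lipophagy liver 1 alone stood clear of the controls by more than a few FPKM. Its log2 change was 0.13 (standard error 0.102, adjusted p = 0.492), -0.05 after rescaling and 0.01 without the livers numbered 1. The other 7 had log2 changes of 0.17 (Ndufb10, -0.02 after rescaling) to 0.37 (Ndufb11 and Ndufb8). Ndufab1, the mitochondrial acyl carrier protein, sits in both arms and also serves lipoic acid synthesis. It had 87.7, 107 and 117 FPKM in controls and 149, 123 and 114 with lipophagy. Lipophagy liver 3 was below control liver 3, and the log2 change was 0.30 (standard error 0.136, adjusted p = 0.266), and 0.12 after rescaling.

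**Figure D3:**
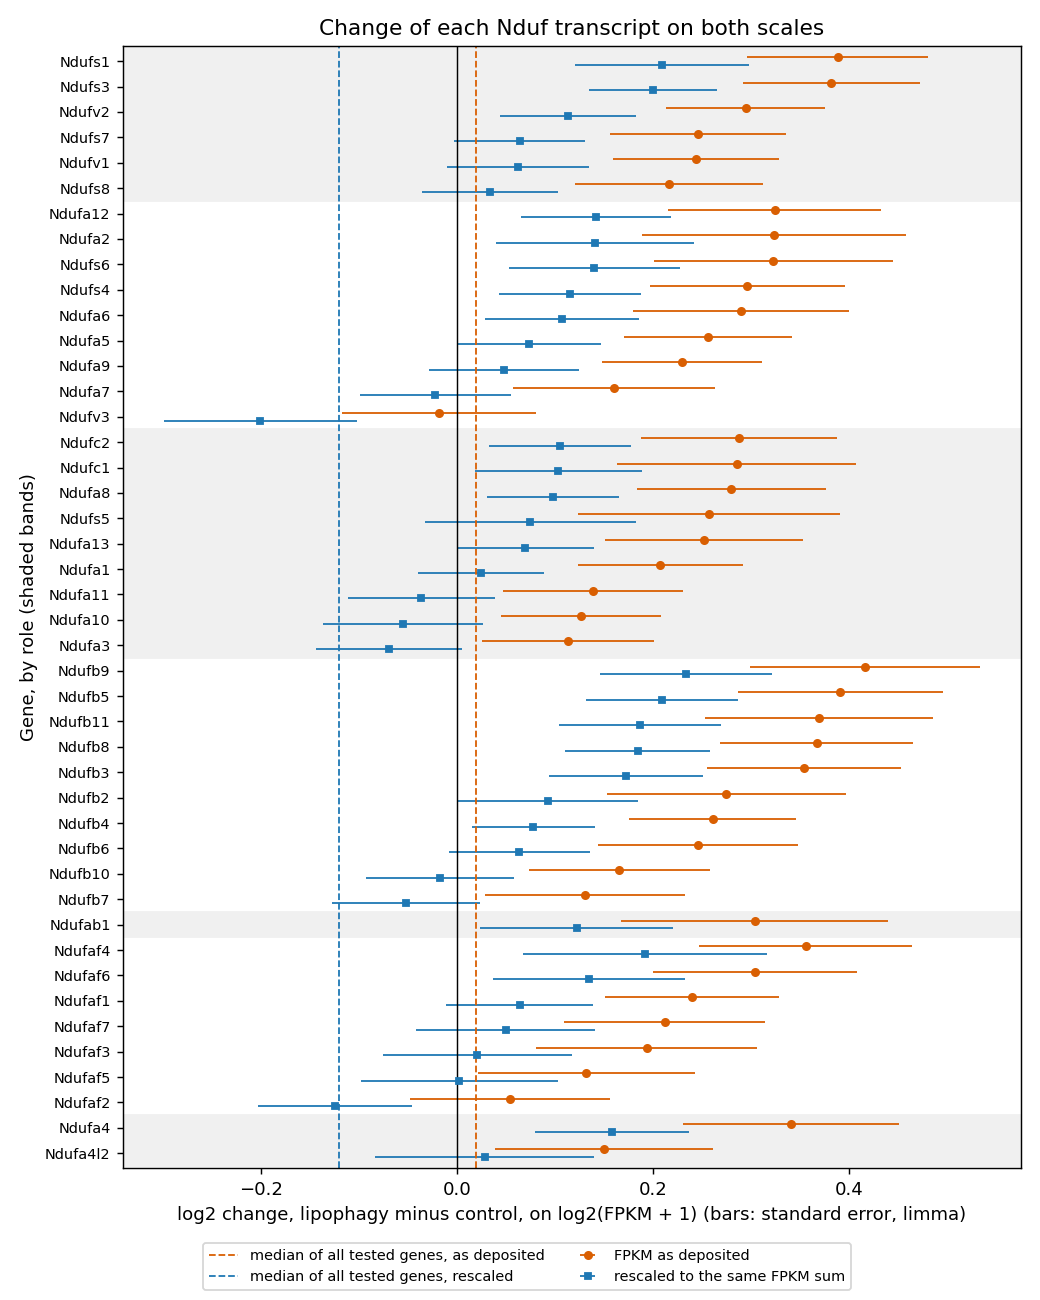
Log2 change (lipophagy minus control, on log2(FPKM + 1)) of 44 of the 45 Nduf transcripts with its limma standard error, from FPKM as deposited (orange circles) and after rescaling each liver to the same FPKM sum (blue squares); dashed lines are the medians of all 11493 tested genes on each scale, 0.020 and -0.12, and shaded bands separate the roles. As deposited all but Ndufv3 lie above 0, and after rescaling Ndufa3, Ndufa7, Ndufa10, Ndufa11, Ndufaf2, Ndufb7, Ndufb10 and Ndufv3 lie below it.

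Most assembly factors were less abundant than the subunits. Their mean level over the 6 livers ran from 2.41 FPKM (Ndufaf5) to 34.4 FPKM (Ndufaf2), against 21.4 to 455 FPKM for the subunits, and Ndufaf2 and Ndufaf1 (23.9 FPKM) lay above the lowest subunit, Ndufa11. Of the 7, all were higher in mean as deposited and 6 after rescaling. As deposited 4 were without overlap, beside 15.4% of all tested genes, and after rescaling 0 were, beside 2.74%. Ndufaf3 and Ndufaf4 act as partners on the ubiquinone-reducing module. Ndufaf4 had 7.22, 8.20 and 6.79 FPKM in controls and 9.65, 8.60 and 11.1 with lipophagy, one of the 3 members in which lipophagy liver 1 was not the highest. The groups were apart by a small margin between control liver 2 and lipophagy liver 2, and the log2 change was 0.36 (standard error 0.108, adjusted p = 0.171), and 0.19 after rescaling. Ndufaf3 had 14.2, 14.7 and 14.6 FPKM in controls and 20.1, 15.1 and 15.3 with lipophagy. Its groups did not overlap either, but lipophagy liver 1 stood far above the other lipophagy livers, which were close to the controls, with a log2 change of 0.19 (limma standard error 0.113, adjusted p = 0.368) that was 0.02 after rescaling.

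Ndufaf1, part of the assembly intermediate of the membrane arm, had 19.9, 23.4 and 22.4 FPKM in controls and 27.7, 25.7 and 24.7 with lipophagy, and Ndufaf6, an early factor for the same junction of the arms, had 9.49, 12.2 and 10.6 against 13.7, 14.3 and 12.4. Both were without overlap, with log2 changes of 0.24 and 0.30, adjusted p-values of 0.214 and 0.199, and changes of 0.06 and 0.13 after rescaling. Ndufaf5 and Ndufaf7 modify arginine residues of core subunits, Ndufaf5 acting on Ndufs7. Ndufaf5 had 1.95, 2.35 and 2.45 FPKM in controls and 3.04, 2.48 and 2.20 with lipophagy. Ndufaf7 had 6.73, 6.97 and 7.16 FPKM against 9.40, 8.27 and 7.10. In both, lipophagy liver 3 lay inside the control range, and the log2 changes were 0.13 (adjusted p = 0.520, and -0.03 without the livers numbered 1) and 0.21 (adjusted p = 0.292), which became 0.0026 and 0.05 after rescaling. Ndufaf2, a paralog of Ndufa12 that holds its place until late assembly, had 29.5, 36.0 and 35.8 FPKM in controls and 37.6, 34.7 and 32.7 with lipophagy. The groups overlapped, control liver 1 being the only low one, and the log2 change of 0.05 (standard error 0.102, adjusted p = 0.791) was -0.04 without control liver 1 and -0.12 after rescaling. The entry 1810043H04Rik, which RefSeq names Ndufaf8, the partner of Ndufaf5, had 33.4, 30.3 and 27.9 FPKM in controls and 47.8, 35.8 and 36.4 with lipophagy, a log2 change of 0.37 (limma standard error 0.126, adjusted p = 0.197) that was 0.19 after rescaling.

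Ndufa4 and Ndufa4l2 lay at the ends of the abundance scale. Ndufa4, first described with complex I and now placed with cytochrome c oxidase, had 868, 895 and 980 FPKM in controls and 1262, 1202 and 1020 with lipophagy, with a small gap between control liver 3 and lipophagy liver 3. Its log2 change was 0.34 (standard error 0.110, adjusted p = 0.183), and 0.16 after rescaling. Its paralog Ndufa4l2, known as a hypoxia-induced gene, had 1.93, 1.58 and 1.73 FPKM in controls and 2.55, 1.82 and 1.83 with lipophagy. The groups overlapped, and the log2 change, which the pseudocount of 1 FPKM shrinks at this level, was 0.15 (standard error 0.111, adjusted p = 0.467), and 0.03 after rescaling. Among the subunits the order of FPKM ran from Ndufa6, an acyl carrier-binding subunit of the peripheral arm, at a mean of 455 and Ndufa3 at 430, whose control livers overlapped, down to Ndufs1 at 43.7 and Ndufa11 at 21.4. Of the 44 neighbouring pairs in the order of all 45 members, 29 overlapped between control livers and 15 did not. Across the 36 subunits the log2 change as deposited had a Spearman rho of 0.011 with the level and of 0.19 with transcript length, both across genes that share these 6 libraries.

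Transcript length moved with the change over all genes. In the tested genes below 700 bases the median log2 change was 0.14, and it went down from bin to bin to -0.054 in those of 5000 bases or more. The 14 members below 700 bases had a median of 0.25, the 11 from 700 to under 1000 bases 0.26, the 9 from there to under 1500 bases 0.25, the 6 from there to under 2000 bases 0.26, and the 4 from there to under 3000 bases 0.29. In each of these bins the members' median was above that of all genes. After rescaling the medians of all genes went from -0.037 in the shortest bin to -0.17 in the longest, and those of the members in these 5 bins lay between 0.069 and 0.11. With the trend on transcript length and GC content taken off in each liver, 42 of 45 members were above 0, beside 52.0% of the 11410 genes with a length, 25 were higher at an unadjusted p below 0.05, beside 10.1%, and the medians were 0.20 for subunits and 0.15 for assembly factors. The part of transcript length in the result was otherwise not tested.

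**Figure D4:**
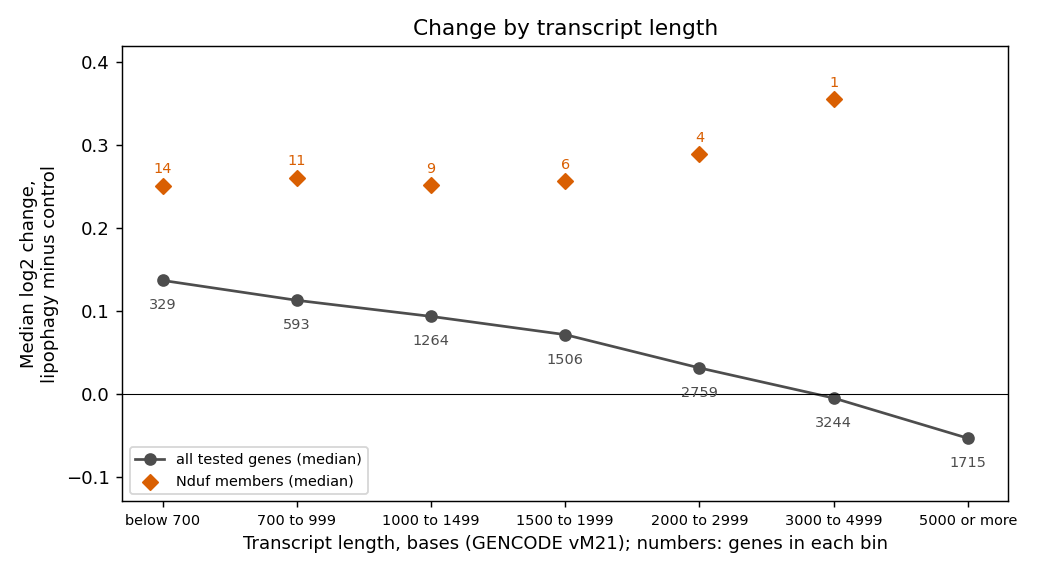
Median log2 change (lipophagy minus control, FPKM as deposited) by transcript length in bases for all tested genes (grey line) and for the Nduf members (orange diamonds), with the number of genes beside each point; the bin of 5000 bases or more has no member. All genes go from 0.14 to -0.054 with length, and the members stay at 0.25 to 0.29 in the bins that hold 4 or more of them.

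Promoter sequences of the members were searched for named elements, and those of some members with and without them are shown. RefSeq (GRCm38.p6) gave a window from 250 bases before to 50 after the start for 39 of the 45 members, and each was searched on both strands. The letters GCGCNTGCG, bound by nuclear respiratory factor 1 (NRF1), a regulator of respiratory genes, were in 11 of 39 members (28.2%), in 15.5% of the tested genes with a window and in 7.12% of all genes with one. The letters AAGATGGC, bound by YY1, were in 7 of 39 members (17.9%), beside 5.43% of tested and 3.19% of all genes. The cyclic AMP response element TGACGTCA was in 3 members (Ndufa10, Ndufa11 and Ndufb2), or 7.69%, beside 3.61% of tested and 2.03% of all genes. The ETS factor letters CCGGAAGT were in 1 member (Ndufs3), or 2.56%, a smaller share than the 9.41% of tested and 4.31% of all genes. The estrogen-related receptor letters CAAGGTCA were also in 1 member (Ndufs5), beside 1.39% of tested and 1.76% of all genes. None of the searched letters were in the windows of 19 of the 39 members, whose log2 changes as deposited ran from -0.02 to 0.39 with a median of 0.24. In all 7 members with the YY1 letters they lay on the coding strand and began 23 to 39 bases after the start. Windows of 30 bases around them, 5′ to 3′ on the strand of the gene, are shown with the YY1 letters in capitals.
Ndufa3 (chr7:3617384-3617413, plus strand): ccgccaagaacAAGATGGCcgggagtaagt
Ndufc1 (chr3:51408915-51408944, minus strand): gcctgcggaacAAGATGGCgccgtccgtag
Ndufs7 (chr10:80249462-80249491, plus strand): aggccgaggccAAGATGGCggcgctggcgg
Ndufa9 (chr6:126849097-126849126, minus strand): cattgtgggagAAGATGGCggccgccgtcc
Ndufs6 (chr13:73328433-73328462, minus strand): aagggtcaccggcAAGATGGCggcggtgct
Ndufs4 (chr13:114388045-114388074, minus strand): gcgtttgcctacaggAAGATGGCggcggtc
Ndufb8 (chr19:44555393-44555422, minus strand): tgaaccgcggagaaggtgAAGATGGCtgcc

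The NRF1 letters lay mostly before the start. The 250 bases before the start are shown for Ndufb4, the member with most separate matches, and for Ndufa11, which held both NRF1 letters and a cyclic AMP response element, with the matches in capitals. In Ndufa11 the NRF1 letters read the same on both strands, so that the matches on the strands overlap in 1 palindrome. Ndufv3, the member with a lower mean as deposited, is shown as 1 of the 19 without the searched letters. Ndufb5 and Ndufb11, with log2 changes of 0.39 and 0.37, are also among those 19, and Ndufa11, which holds matches, was below 0 after rescaling.
Ndufb4 (chr16:37654369-37654618, minus strand): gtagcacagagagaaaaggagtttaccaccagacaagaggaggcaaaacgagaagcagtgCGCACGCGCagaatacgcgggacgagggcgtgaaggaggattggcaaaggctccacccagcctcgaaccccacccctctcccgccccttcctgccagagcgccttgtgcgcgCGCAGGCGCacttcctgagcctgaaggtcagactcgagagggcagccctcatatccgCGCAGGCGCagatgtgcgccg
Ndufa11 (chr17:56717512-56717761, plus strand): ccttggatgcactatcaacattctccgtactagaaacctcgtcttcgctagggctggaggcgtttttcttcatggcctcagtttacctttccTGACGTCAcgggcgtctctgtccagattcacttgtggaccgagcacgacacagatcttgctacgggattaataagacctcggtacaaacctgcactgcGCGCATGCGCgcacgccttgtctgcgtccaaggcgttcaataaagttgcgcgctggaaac
Ndufv3 (chr17:31519865-31520114, plus strand): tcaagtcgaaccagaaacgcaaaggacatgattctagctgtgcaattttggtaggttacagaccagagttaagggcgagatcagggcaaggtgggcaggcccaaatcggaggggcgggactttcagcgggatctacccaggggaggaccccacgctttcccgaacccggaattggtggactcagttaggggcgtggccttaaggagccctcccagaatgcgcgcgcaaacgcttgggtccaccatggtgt

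Changes of the members with and without these letters were set side by side, with no test. The median log2 change as deposited was 0.26 for the 11 members with the NRF1 letters and 0.25 for the 28 without, and 0.29 for the 7 with the YY1 letters and 0.25 for the 32 without. After rescaling these medians were 0.078 and 0.064 for NRF1, and 0.10 and 0.072 for YY1. Ndufb4 had 246, 254 and 277 FPKM in controls and 325, 308 and 298 with lipophagy, a log2 change of 0.26 (0.08 after rescaling), and Ndufa11 had 19.4, 20.5 and 20.9 against 25.2, 21.6 and 20.6, a log2 change of 0.14 that was -0.04 after rescaling. A match is a description of the letters and not a measured binding site.

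Regulators of nuclear and of mitochondrial respiratory genes were measured in the same livers. Of 18 tested, some of which (such as Tfam and Polrmt) act on mitochondrial DNA and not on nuclear promoters, 14 had a log2 change above 0 as deposited and 5 after rescaling, with a median log2 change of 0.072 and -0.061, and none passed the test as deposited. Nrf1 itself had 2.18, 1.71 and 2.09 FPKM in controls and 2.63, 2.09 and 1.92 with lipophagy, and Yy1 had 11.0, 11.2 and 10.8 against 11.1, 10.7 and 11.8, with overlap in both. Tfb2m, a factor of mitochondrial transcription, had the largest positive change of the list, 0.28 (standard error 0.0804, adjusted p = 0.161), and 0.11 after rescaling. Myc, a growth-related transcription factor, had the largest negative one: 11.6, 6.14 and 15.1 FPKM in controls and 1.63, 2.11 and 1.20 with lipophagy, a log2 change of -2.11 (limma standard error 0.274, adjusted p = 0.071). Its groups lay far apart, and it passed the test after rescaling (-2.25, adjusted p = 0.0254), with the liver number as a replicate block (adjusted p = 0.0252) and without control liver 2 (adjusted p = 0.0073), but not as deposited.

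The other complexes of oxidative phosphorylation were compared in the same way. Of 40 genes of complexes II to V, 40 had a log2 change above 0 as deposited and 39 after rescaling, with median log2 changes of 0.32 and 0.13, beside 0.27 and 0.090 for the complex I subunits, and 33 and 19 of the 40 had every lipophagy liver above every control liver. By complex the medians as deposited were 0.31 for complex II (4 genes), 0.35 for complex III (9 genes), 0.26 for complex IV (12 genes) and 0.32 for ATP synthase (15 genes), and none of these genes passed the test, the lowest adjusted p being 0.124. The 14 complex I assembly factors with other names had a median of 0.17, with 13 above 0 as deposited and 8 after rescaling. Tmem126b, a partner of Ndufaf1 in the membrane arm intermediate, had the largest change among them and the lowest adjusted p of any complex I gene here. It had 14.9, 15.4 and 15.4 FPKM in controls and 22.4, 20.7 and 20.7 with lipophagy, close together within each group and well apart between them, with a log2 change of 0.45 (limma standard error 0.0732, adjusted p = 0.092), 0.28 after rescaling (adjusted p = 0.084) and 0.43 with array quality weights, the setting in which it passed (adjusted p = 0.046). Ecsit, another partner, had 21.5, 25.2 and 24.2 FPKM against 30.1, 28.8 and 25.9, a log2 change of 0.25 (0.07 after rescaling), and Tmem186 was at the low end of the list as deposited, at -0.01 (-0.16 after rescaling).

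Ribosomal protein transcripts gave a further comparison. Of 81 cytosolic ribosomal protein genes, 81 had a change above 0 on log2(FPKM + 1) as deposited and 49 after rescaling, with median log2 changes of 0.22 and 0.034, though the mean FPKM of Rps4l itself was slightly lower with lipophagy (21.4 ± 2.44 against 21.4 ± 8.15, SD, n = 3). Of 77 mitochondrial ribosomal protein genes 75 and 46 had a change above 0, with medians of 0.19 and 0.014. The share of genes without overlap as deposited was 23.5% and 44.2% in these lists, and 72.2% among the complex I subunits. After rescaling 1 of 81, 5 of 77 and 11 of 36 were without overlap. The part of a shift shared with ribosomal protein transcripts in the complex I result was not tested.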

How the data were processed

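The authors deposited 1 table of FPKM per gene for 6 livers (paired-end reads of 100 bases), with no counts. Per the labels it was made with TopHat2 2.0.13, Bowtie2 2.2.3, SAMtools 0.1.19 and Cufflinks 2.2.1 on mm10, and the annotation is not given in the sources used here. Groups came from the sample titles. Genes averaging 0.5 FPKM or more were tested as log2(FPKM + 1) with limma 3.58.1 (R 4.3.3, intensity trend, two-sided, Benjamini-Hochberg over 11493 genes), a script tested on simulated data. A log2 change on this scale understates changes of low genes. Nothing in the labels ties each replicate to a mouse of its own, so p-values measure only the spread between these samples. Depth was estimated from steps in low values and covers counting error only. Transcript length and GC content came from GENCODE vM21 and promoters from RefSeq. Alternatives were other pseudocounts, filters, scalings, weights, a replicate block and leaving out livers. Values in every liver are given for core subunits (1 of which counts in the totals and is not reported here on its own), the 2 largest and the smallest change of each accessory group, Ndufab1, assembly factors and other Nduf entries, and a few genes named for their promoter, regulator or assembly role. Members, lists and motifs were chosen with earlier results of these data known.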

Additional observations from a re-analysis of the deposited data

How the results depend on the processing

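The 45 members kept the direction of their log2 change under the other pseudocounts and filters, limma without its trend, a common median, array quality weights and the replicate block, and 0 passed the test under any alternative. After rescaling to the same FPKM sum, 5 members had an unadjusted p below 0.05, 11 were without overlap, the medians were 0.090 (subunits) and 0.050 (assembly factors), 104 genes of the table were called (5 higher, 99 lower, against 0 and 3 as deposited), and Ndufa10 (-0.055), Ndufa11 (-0.036), Ndufa3 (-0.069), Ndufa7 (-0.022), Ndufaf2 (-0.12), Ndufb10 (-0.017) and Ndufb7 (-0.052) reversed. After quantile normalization 9 members had an unadjusted p below 0.05. The medians were 0.087 (subunits) and 0.19 (assembly factors), the opposite order to that as deposited. Ndufa10 (-0.034), Ndufa3 (-0.097), Ndufa7 (-0.037), Ndufaf2 (-0.063), Ndufb10 (-0.024) and Ndufb7 (-0.055) reversed. With length and GC trends taken off, 6 genes were called and Ndufa3 (-0.00018) and Ndufaf2 (-0.054) reversed. Overlap was not computed for these last 2 settings. Genes called over the table were 1 without a filter, 39 with array weights and 43 with the replicate block, under which 20 members had an unadjusted p below 0.05, beside 9.86% of all genes. The block rests on a shared number only, since deviations of same-numbered livers correlated at 0.25, 0.23 and -0.057. Leaving out each liver in turn gave 14 to 33 members at an unadjusted p below 0.05, beside 6.96% to 14.0% of all genes, 31 to 39 without overlap, beside 18.4% to 25.9% of all genes (overlap is easier to avoid with fewer livers), 1 to 11 genes called, and medians of 0.20 to 0.32 (subunits) and 0.12 to 0.27 (assembly factors). Ndufaf2 reversed without control liver 1 (-0.038), and Ndufv3 without control liver 3 (0.012) or lipophagy liver 2 (0.067; -0.086 to 0.067 over all 6 omissions). Without both livers numbered 1, chosen after seeing the data, 8 members had an unadjusted p below 0.05, 7 genes were called, the medians were 0.15 and 0.10, and Ndufaf2 (-0.090) and Ndufaf5 (-0.029) reversed. The cause of these differences was not tested. No member had an adjusted p below 0.05 by limma in any setting, with at most 3 livers in a group. Assembly factors had as few as an estimated 52.7 fragments in a liver.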

Other observations

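Genes around complex I were also compared, by lists. The 7 genes that deliver electrons to ubiquinone beside complex I all had a log2 change above 0 as deposited, and so did 6 of 7 after rescaling to the same FPKM sum, with a median log2 change of 0.26 and 0.079. Prodh, which oxidizes proline in mitochondria, had the largest change among them, with 51.9, 44.3 and 41.3 FPKM in controls and 62.1, 55.9 and 59.7 with lipophagy, groups that did not overlap, a log2 change of 0.37 (0.19 after rescaling) and an adjusted p of 0.153 (limma). Of 15 genes of iron-sulfur cluster assembly, which supplies the clusters of the peripheral arm, 14 had a log2 change above 0 as deposited and 10 after rescaling, with medians of 0.20 and 0.028. Ndufab1 is among them and is itself one of the 45 members, and without it the counts were 13 and 9 of 14 and the medians 0.20 and 0.026. Of 16 genes of NAD and ubiquinone supply 15 and 7 had a change above 0, with medians of 0.16 and -0.0083. Among 15 general mitochondrial mass markers, 13 had a change above 0 as deposited and 10 after rescaling, with medians of 0.21 and 0.029. Phb2, an inner membrane scaffold protein, had 106, 101 and 104 FPKM in controls and 137, 125 and 127 with lipophagy, without overlap, and Slc25a4, the adenine nucleotide carrier of heart and muscle, had 9.80, 8.13 and 9.28 against 7.87, 8.06 and 6.92, with every lipophagy liver below every control liver. Their log2 changes were 0.32 and -0.22, and 0.14 and -0.39 after rescaling. None of these genes passed the test across all genes. Among 9 genes of mitochondrial superoxide and peroxide defence, 8 had a change above 0 as deposited and 2 after rescaling, with medians of 0.14 and -0.039. Sod2, the matrix superoxide dismutase, had 38.8, 40.3 and 37.1 FPKM in controls and 46.9, 41.2 and 47.2 with lipophagy, a log2 change of 0.21 (0.03 after rescaling), and Ucp2 had 36.4, 45.4 and 48.8 against 30.5, 39.2 and 38.3, which overlapped, a log2 change of -0.26 (-0.44 after rescaling).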
